A study of Mus musculus with 6 samples.

Results

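The subunits of the Polycomb repressive complexes PRC1 and PRC2 were read in mouse embryonic stem cells with and without Sirt1. The set was a list of 32 gene symbols, and a gene was taken as a member when a probe set of the array was annotated to exactly that symbol. On this rule 31 of the 32 genes were measured, of 18193 named genes in all. Rybp was not, because both of its 2 probe sets are annotated to Rybp-ps as well, and no value is given for it. Each gene was read on its brightest probe set, the one with the highest mean over the 6 arrays.

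The cells were murine R1 embryonic stem cells of strain (129X1 x 129S1)F1, either Sirt1+/+ (wild type, 3 arrays) or Sirt1-/- (knockout, 3 arrays). Sirt1 encodes an NAD-dependent deacetylase of histones and other proteins. Cells of both genotypes were grown on gelatin, and their medium held serum and the cytokine LIF, which holds them undifferentiated. Total RNA was hybridised to 1 Affymetrix array per sample, and the question is how RNA levels change when Sirt1 is absent. Per the labels there was 1 source of cells per genotype, so the loss of Sirt1 and any other difference between the sources cannot be told apart. They do not say whether the 3 samples of a genotype were separate cultures, so a p-value reflects spread among these samples alone, and that spread may be technical. In bulk RNA, fewer cells of a kind and less RNA per cell cannot be told apart.

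Polycomb proteins keep developmental genes silent by marking their chromatin. PRC2 methylates histone H3 on lysine 27 through Ezh1 or Ezh2, and PRC1 adds ubiquitin to histone H2A through Ring1 or Rnf2. Canonical PRC1 carries a Cbx protein that binds the PRC2 mark and a Phc protein that lets complexes cluster. Variant PRC1 carries Rybp or Yaf2 in place of Cbx and reaches chromatin without the PRC2 mark, for instance through the CpG-binding protein Kdm2b. In embryonic stem cells Cbx7 is known as the main canonical Cbx protein, and Cbx2 and Cbx8 are known to take over during differentiation. SIRT1 protein has been described in association with a form of PRC2.

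Array medians over all probe sets ranged from 4.51 to 4.57 log2 units. Sirt1 itself read 10.12, 10.13 and 10.23 across wild-type arrays against 8.02, 7.94 and 8.20 across knockout arrays. No array overlapped, and the log2 change was -2.11 (SE 0.08; adjusted p = 3.98e-05, limma with Benjamini-Hochberg). By exact permutation, two-sided, p was 0.1, and 3 against 3 arrays cannot go lower. The sources used here do not place its probe set inside or outside the deleted part. Of the 9 embryonic stem cell markers all read above 5.83, the median of named genes. Their mean level was 11.9 in each wild-type array and 11.6 in each knockout array, with 5 of 9 past the threshold, all lower. The list of fibroblast markers had 3 genes higher and 2 lower of 10, with array means of 5.60 to 5.67 in wild type and 5.62 to 5.72 in knockout. Vim, Twist1 and Fn1 rose by 1.28, 0.48 and 0.35, and Thy1 and Pdgfrb fell by 1.07 and 0.50. Fn1 and Vim were bright, at 11.69 and 9.22 in wild type, while Col1a1, Col1a2, Col3a1, Postn and Lum had group means of at most 3.61. Of 10 extraembryonic endoderm markers 6 fell and none rose, with array means of 5.78 to 5.82 in wild type and 4.98 to 5.09 in knockout. Beside these counts, 30.0% of all named genes passed, 12.5% higher and 17.5% lower. Without the dimmest 40% of genes, 5879 of 10916 passed, 3330 of them lower. Whether these cell type markers bear on the Polycomb subunits was not tested.

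Of the 31 measured members 12 differed between genotypes (limma, Benjamini-Hochberg adjusted p under 0.05 over all 18193 genes), 5 higher and 7 lower in the knockout. That is 38.7% of the members, beside 30.0% of all named genes. By direction 12.5% of all genes were higher and 17.5% lower. No member reached a 2-fold change, which 1.93% of all genes did while passing the test. The largest was the 1.62-fold rise of Bmi1. The median log2 change was -0.02 over the members and -0.01 over all genes. The arrays of the genotypes did not overlap for 19 of 31 members, or 61.3%, beside 43.8% of all genes. The shares over all genes include dim genes, while 26 of the 31 members lay above 5.83, the median of named genes. Without the dimmest 40% of genes, 16 of 30 members passed, beside 5879 of 10916 genes, and the shares were then close.

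By complex, the calls fell as follows. In PRC2 2 of 11 members fell and none rose. That is 18.2%, beside 30.0% of all genes called and 17.5% called lower, so the share that fell was close to that of all genes. Neither gene of the catalytic pair of PRC1 passed. In canonical PRC1, counted without that pair, 3 of 10 rose and 3 fell, and in variant PRC1 2 of 8 rose and 2 fell. In canonical and in variant PRC1 the share called in either direction was above the 30.0% of all genes. However, 8 of 10 canonical and 7 of 8 variant members lay above the median level of named genes. Without the dimmest 40% of genes, 5 of 9 canonical and 5 of 8 variant members passed, beside 5879 of 10916 genes. The median absolute log2 change was 0.40 in canonical PRC1, 0.20 in variant PRC1 and 0.12 in PRC2, beside 0.14 over all genes. These are counts and medians of small lists, and the difference between complexes was not tested.

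**Figure D1:**
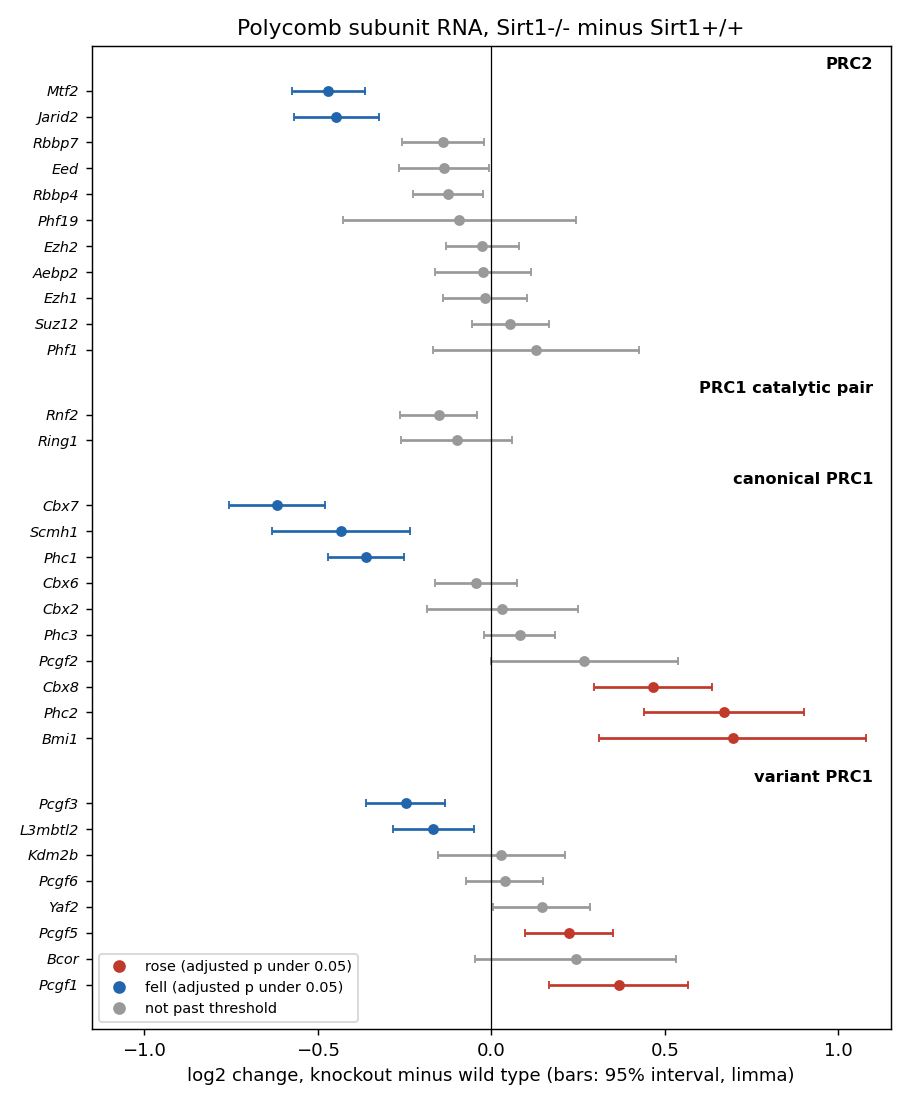
Log2 change in knockout minus wild type (x axis) for each of the 31 measured members (rows), grouped by complex. Points are limma estimates from 3 against 3 arrays, bars their 95% intervals, red and blue mark genes past an adjusted p of 0.05. Canonical PRC1 spans the widest range, from -0.62 for Cbx7 to 0.70 for Bmi1. Of the PRC2 core genes, Ezh2 and Suz12 sit near 0, while Eed reads -0.14 with an interval just below 0.

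The promoters of 4 canonical PRC1 genes are shown because the Polycomb system reads CpG-rich DNA, and because members of one family moved in opposite directions. RefSeq's table on GRCm38.p6 gives windows of 300 bases, from 250 before to 50 after a gene's start, and held 41 windows for 28 of the 32 genes. Of members past the threshold that have a single window, the 2 that rose most and the 2 that fell most are printed. Capitals mark each CpG dinucleotide, and each sequence reads 5′ to 3′ on the gene's own strand.
Cbx7: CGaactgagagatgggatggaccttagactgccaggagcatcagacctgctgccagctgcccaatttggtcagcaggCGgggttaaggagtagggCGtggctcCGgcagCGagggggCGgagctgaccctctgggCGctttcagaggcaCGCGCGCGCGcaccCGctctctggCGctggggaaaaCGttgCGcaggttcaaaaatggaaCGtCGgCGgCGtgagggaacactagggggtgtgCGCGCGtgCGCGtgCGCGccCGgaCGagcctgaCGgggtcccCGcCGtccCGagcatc
Phc1: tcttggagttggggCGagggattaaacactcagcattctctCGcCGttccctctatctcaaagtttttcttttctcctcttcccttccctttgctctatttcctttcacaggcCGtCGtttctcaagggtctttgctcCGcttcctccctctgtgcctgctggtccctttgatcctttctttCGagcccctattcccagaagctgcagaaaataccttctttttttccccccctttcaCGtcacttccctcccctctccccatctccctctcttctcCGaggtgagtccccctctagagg
Bmi1: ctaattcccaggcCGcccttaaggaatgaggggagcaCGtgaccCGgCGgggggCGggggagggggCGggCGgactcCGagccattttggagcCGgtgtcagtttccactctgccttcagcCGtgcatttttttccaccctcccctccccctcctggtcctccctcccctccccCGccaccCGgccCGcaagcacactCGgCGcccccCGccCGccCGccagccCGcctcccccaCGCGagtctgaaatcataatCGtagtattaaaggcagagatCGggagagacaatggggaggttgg
Cbx8: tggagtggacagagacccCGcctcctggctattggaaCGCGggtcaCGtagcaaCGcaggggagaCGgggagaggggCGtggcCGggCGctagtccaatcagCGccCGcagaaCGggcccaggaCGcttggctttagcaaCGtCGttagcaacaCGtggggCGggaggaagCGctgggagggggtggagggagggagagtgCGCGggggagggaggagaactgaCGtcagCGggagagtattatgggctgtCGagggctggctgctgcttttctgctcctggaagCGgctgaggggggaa

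These 4 windows lay at chr15:79932597-79932896 (Cbx7, minus strand), chr6:122340178-122340477 (Phc1, minus strand), chr2:18676768-18677067 (Bmi1, plus strand) and chr11:119040864-119041163 (Cbx8, minus strand). The Cbx7 window held 33 CpGs, Cbx8 24, Bmi1 23 and Phc1 9. Over the 32851 windows of all genes of every kind the median was 7 CpGs, and over the 41 member windows it was 23. Phc1, which fell, was thus nearest to the common level, while Cbx7, which also fell, exceeded 91.4% of all windows. The risen genes, at 23 and 24 CpGs, lay between the fallen ones.

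Short motifs were also searched on both strands. CACGTG, the E-box bound by Myc, Max and Mga, was present in 7.15% of all windows and in 7 of 41 member windows (17.07%). Those 7 belonged to Bmi1, Cbx8, Phc2, Phc3, Pcgf2, Rbbp4 and Cbx6. The Yy1 motif GCCATNTT was present in 6.05% of all windows and in 5 of 41 (12.20%), those of Bmi1, Phf19, Phc3, Pcgf2 and Jarid2. The E-box itself contains a CpG, and the part of CpG number in its share was not tested. A match is a run of letters and says nothing on binding in these cells.

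Among the Cbx proteins, Cbx7 fell and Cbx8 rose. Cbx7 read 9.42, 9.43 and 9.43 across wild-type arrays against 8.78, 8.74 and 8.91 across knockout arrays. The wild-type arrays were almost identical and all knockout arrays lay far below them, at a log2 difference of -0.62 (SE 0.06) or 1.53-fold lower (adjusted p = 0.00053, limma with Benjamini-Hochberg). Cbx8 read 4.24, 4.25 and 4.10 across wild-type arrays against 4.76, 4.59 and 4.62 across knockout arrays. It was higher in every knockout array, by 0.47 (SE 0.07; adjusted p = 0.00343, limma with Benjamini-Hochberg). Its level in both groups was below the median of all named genes, 5.83, where array background can shrink a fold. Within arrays the Cbx8 level minus the Cbx7 level was 1.08 higher in knockout, a pair chosen after its values were seen.

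Cbx2 and Cbx6 did not pass. Cbx2 read 6.36 ± 0.12 and 6.39 ± 0.13 (SD, n = 3 each) with overlapping arrays, and the 95% interval of its change ran from -0.18 to 0.25. Cbx6 read 8.49 ± 0.05 and 8.45 ± 0.04 (SD, n = 3 each), with an interval from -0.16 to 0.08. Cbx2 and Cbx8 are neighbours on chromosome 11, and Cbx6 and Cbx7 lie close together on chromosome 15, so a gene that moved stood beside one that did not pass in both places. The other probe sets of Cbx7, at 4.39 and 3.14, read 0.05 and -0.04 and did not pass. The other probe set of Cbx8, at 3.81, read 0.14 and did not pass either. With all probe sets of a gene averaged, the Cbx7 change was -0.20 and the Cbx8 change 0.30, the latter no longer past the threshold (adjusted p = 0.0825, limma with Benjamini-Hochberg).

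The Phc proteins, whose SAM domains link PRC1 complexes to each other, showed the same kind of split. Phc1, the form typical of embryonic stem cells, read 11.66, 11.67 and 11.61 across wild-type arrays against 11.27, 11.26 and 11.32 across knockout arrays. The groups were clearly apart, at a log2 difference of -0.36 (SE 0.05; adjusted p = 0.00165, limma with Benjamini-Hochberg). Phc2 read 7.42, 7.38 and 7.64 across wild-type arrays against 8.01, 8.16 and 8.27 across knockout arrays. The lowest knockout array exceeded the highest wild-type array, and the change was 0.67 (SE 0.10) or 1.59-fold higher (adjusted p = 0.00272, limma with Benjamini-Hochberg). Its other probe set rose by 0.51. Phc3 read 7.03 ± 0.02 and 7.11 ± 0.01 (SD, n = 3 each). Its arrays did not overlap, but the change of 0.08 did not pass (adjusted p = 0.21, limma with Benjamini-Hochberg). Within arrays the Phc2 level minus the Phc1 level was 1.03 higher in knockout, again a pair chosen after its values were seen.

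The PCGF proteins define which PRC1 complex forms. Of the canonical ones, Bmi1 rose. It read 5.62, 5.35 and 6.02 across wild-type arrays against 6.30, 6.37 and 6.40 across knockout arrays. The wild-type arrays were scattered and the knockout arrays tight, and none overlapped. The change was 0.70 (SE 0.16; adjusted p = 0.0181, limma with Benjamini-Hochberg), and a dimmer probe set rose by 0.72. The call on the brighter probe set was lost without wild-type replicate 1 (log2 change 0.67; adjusted p = 0.0624, limma with Benjamini-Hochberg), knockout replicate 2 (0.69, adjusted p = 0.0565) or knockout replicate 3 (0.68, adjusted p = 0.0577). Pcgf2, the other canonical PCGF protein, read 5.731 ± 0.143 and 5.999 ± 0.179 (SD, n = 3 each). Its change of 0.27 did not pass, with a 95% interval from just below 0 to 0.54. It passed at 0.28 when its probe sets were averaged (adjusted p = 0.0341, limma with Benjamini-Hochberg).

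Scmh1, a relative of the fly Polycomb protein Sex comb on midleg, fell. It read 5.78, 5.79 and 5.66 across wild-type arrays against 5.29, 5.18 and 5.46 across knockout arrays. Every knockout array was lower, by 0.43 on average (log2 change -0.43, SE 0.08; adjusted p = 0.0087, limma with Benjamini-Hochberg). The level was below the median of all named genes. Its remaining probe sets, at 3.27 and 2.90, read 0.09 and 0.16, and the average of its probe sets did not pass (-0.06; adjusted p = 0.558, limma with Benjamini-Hochberg).

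In the catalytic pair of PRC1 neither gene passed. Rnf2, the main H2A ubiquitin ligase of embryonic stem cells, read 10.92, 10.90 and 10.91 across wild-type arrays against 10.71, 10.80 and 10.77 across knockout arrays. Every knockout array was lower, and the change of -0.15 (SE 0.05) was just outside the threshold (adjusted p = 0.0501, limma with Benjamini-Hochberg). It passed when values were quantile normalised again (-0.16; adjusted p = 0.0275, limma with Benjamini-Hochberg), without the dimmest 40% of genes (adjusted p = 0.0144) and with an intensity trend in the variance model (adjusted p = 0.000599). Ring1 read 5.83 ± 0.09 and 5.73 ± 0.07 (SD, n = 3 each) with overlapping arrays, and its interval ran from -0.26 to 0.06.

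**Figure D2:**
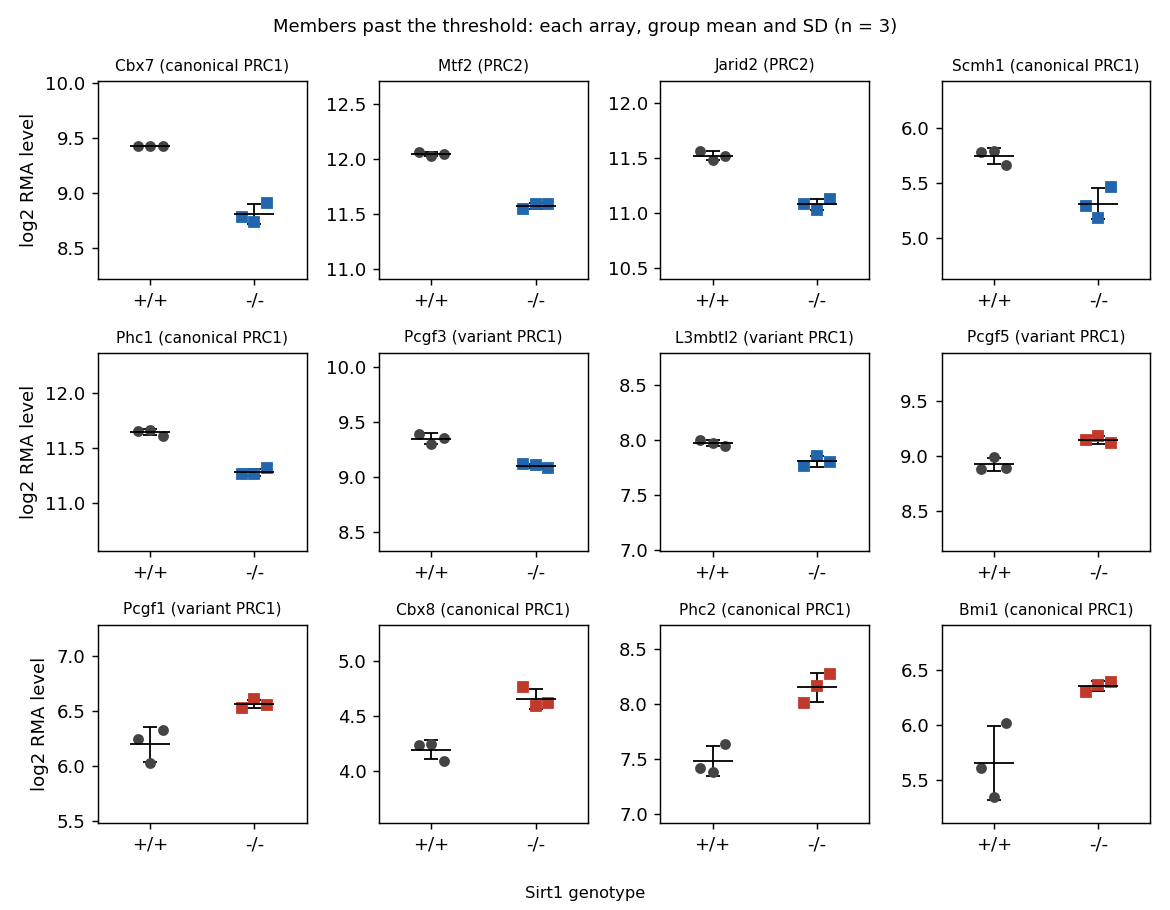
Log2 RMA level (y axis, 1.8 log2 units tall in every panel) of the 12 members past the threshold in each array of Sirt1+/+ cells (circles) and Sirt1-/- cells (squares), with group mean and SD (n = 3). In no panel do the genotypes overlap, the wild-type arrays of Cbx7 lie within 0.01 of each other, and those of Bmi1 spread from 5.35 to 6.02.

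In PRC2 the accessory subunits Mtf2 and Jarid2 fell, both of which help to bring the complex to its sites in embryonic stem cells. Mtf2, a Polycomb-like protein that binds CpG-rich DNA, read 12.06, 12.02 and 12.04 across wild-type arrays against 11.54, 11.59 and 11.59 across knockout arrays. Arrays of a genotype were within 0.05 of each other and the groups stood well apart, at a log2 difference of -0.47 (SE 0.04) or 1.38-fold lower (adjusted p = 0.00053, limma with Benjamini-Hochberg). Of its 5 other probe sets 3 fell, by 0.41, 0.21 and 0.26, and the dimmest ones read -0.09 and -0.20 without passing. The average of all 6 was -0.27 and passed. Jarid2, a DNA-binding partner without demethylase activity, read 11.56, 11.48 and 11.51 across wild-type arrays against 11.08, 11.02 and 11.12 across knockout arrays. The change was -0.45 (SE 0.05; adjusted p = 0.00111, limma with Benjamini-Hochberg), and the other probe sets fell by 0.48 and 0.27.

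No core gene of PRC2 passed on its brightest probe set. The methyltransferase Ezh2 read 10.46, 10.46 and 10.49 across wild-type arrays against 10.41, 10.45 and 10.47 across knockout arrays. The arrays overlapped, and the 95% interval of the change, from -0.13 to 0.08, lay wholly above that of Mtf2, which ran from -0.57 to -0.36. Suz12, the scaffold, read 11.69 ± 0.04 and 11.75 ± 0.01 (SD, n = 3 each), with an interval from -0.05 to 0.17. Every knockout array of Suz12 lay above wild type. All 6 of its probe sets read higher in the knockout, by 0.05 to 0.30, and none passed. Eed, which reads the methyl mark, was at 11.11 ± 0.01 and 10.98 ± 0.07 (SD, n = 3 each), a change of -0.14 that did not pass (adjusted p = 0.111, limma with Benjamini-Hochberg). All its knockout arrays lay below wild type, and its 95% interval, before adjustment over genes, ran from -0.26 to -0.01 and did not include 0.

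The histone chaperones Rbbp4 and Rbbp7, which PRC2 shares with other complexes, read -0.12 and -0.14. Neither passed (limma, Benjamini-Hochberg adjusted p = 0.0689 and 0.0793), although no knockout array overlapped with wild type. With an intensity trend in the variance model, or without the dimmest 40% of genes, Eed, Rbbp4 and Rbbp7 also passed, and PRC2 then had 5 of 11 members lower and none higher. More of all genes passed there too, 6449 of 18193 (3727 lower) with the trend and 5879 of 10916 (3330 lower) without the dimmest. The main test called 5462 of 18193 (3192 lower). Of the remaining accessory subunits, Aebp2 read -0.02, Phf19 -0.09 and Phf1 0.13. Their arrays overlapped, and the interval for Phf19 was wide, from -0.43 to 0.24.

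Ezh1, the alternative methyltransferase of PRC2, depended on the probe set. The brightest one read 8.63 ± 0.03 and 8.61 ± 0.06 (SD, n = 3 each), a change of -0.02 with overlapping arrays. The other 3 rose by 0.50, 0.95 and 0.72 from wild-type means of 6.70, 3.22 and 2.65 (limma over 34945 probe sets, Benjamini-Hochberg adjusted p = 0.00215, 0.00045 and 0.00475). The last 2 of these wild-type means lay below 3.65, the lower quartile of all named genes, so the sizes of those changes are uncertain. The average of all 4, which includes them, rose by 0.54. The sources used here do not say which transcripts each probe set reads.

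In variant PRC1 the 4 called members changed by at most 0.37. Pcgf1, which pairs with Kdm2b and Bcor, read 6.24, 6.02 and 6.32 across wild-type arrays against 6.52, 6.60 and 6.55 across knockout arrays. Every knockout array was higher, by 0.37 on average (SE 0.08; adjusted p = 0.0176, limma with Benjamini-Hochberg). The call was lost without knockout replicate 2 (log2 change 0.35; adjusted p = 0.0608, limma with Benjamini-Hochberg) or knockout replicate 3 (0.37, adjusted p = 0.0515). Its partners read 0.03 for Kdm2b and 0.24 for Bcor, neither past the threshold. The Bcor interval ran from -0.05 to 0.53. Yaf2, the stand-in for Rybp, read 7.67 ± 0.05 and 7.81 ± 0.07 (SD, n = 3 each). Its change of 0.15 did not pass (adjusted p = 0.112, limma with Benjamini-Hochberg).

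Pcgf3 and Pcgf5 form closely related complexes and were called in opposite directions. Pcgf3 read 9.39, 9.30 and 9.35 across wild-type arrays against 9.12, 9.10 and 9.08 across knockout arrays. All knockout arrays were lower, by 0.25 on average (log2 change -0.25, SE 0.05; adjusted p = 0.00894, limma with Benjamini-Hochberg). Its other probe sets were dim, at 4.03 and 3.53, and read 0.08 and -0.06 without passing. The average over all probe sets of Pcgf3, which includes them, read -0.08 and did not pass (adjusted p = 0.372, limma with Benjamini-Hochberg). Pcgf5 read 8.888, 8.997 and 8.890 across wild-type arrays against 9.145, 9.187 and 9.117 across knockout arrays, a rise of 0.22 (SE 0.05; adjusted p = 0.0194, limma with Benjamini-Hochberg). Another Pcgf5 probe set went the other way, from 6.95 to 6.11 (log2 change -0.85; limma over all probe sets, Benjamini-Hochberg adjusted p = 0.00143). The average over its probe sets was -0.25 and was called lower (adjusted p = 0.0351, limma with Benjamini-Hochberg), so no direction is given for the gene as a whole. On the brightest probe set the call was also lost without wild-type replicate 1 (0.21, adjusted p = 0.0741) or 3 (0.21, adjusted p = 0.0612) and without knockout replicate 1 (0.23, adjusted p = 0.05001) or 2 (0.21, adjusted p = 0.0673).

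The complex of Pcgf6, L3mbtl2, Mga and E2f6 represses germline genes in embryonic stem cells. Pcgf6 read 9.80 ± 0.04 and 9.83 ± 0.02 (SD, n = 3 each), and the interval of its change ran from -0.07 to 0.15. Of its other probe sets 1 rose, by 0.57, and 1 read 0.10. The average of its probe sets passed, at 0.24 (adjusted p = 0.0271, limma with Benjamini-Hochberg). L3mbtl2, a protein with MBT domains, read 8.001, 7.970 and 7.951 across wild-type arrays against 7.764, 7.859 and 7.799 across knockout arrays. The change of -0.17 (SE 0.05) only just passed (adjusted p = 0.0417, limma with Benjamini-Hochberg). It was lost under 9 of 13 other settings, among them the loss of any 1 array, where the log2 change lay between -0.14 and -0.19. Without any 1 array, 1 to 3 variant PRC1 genes passed, in place of 4. The count was 1 without knockout replicate 2, and 2 without wild-type replicate 1 or 3 or knockout replicate 1 or 3. Over all genes between 4104 and 4753 passed without any 1 array, in place of 5462.

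**Figure D3:**
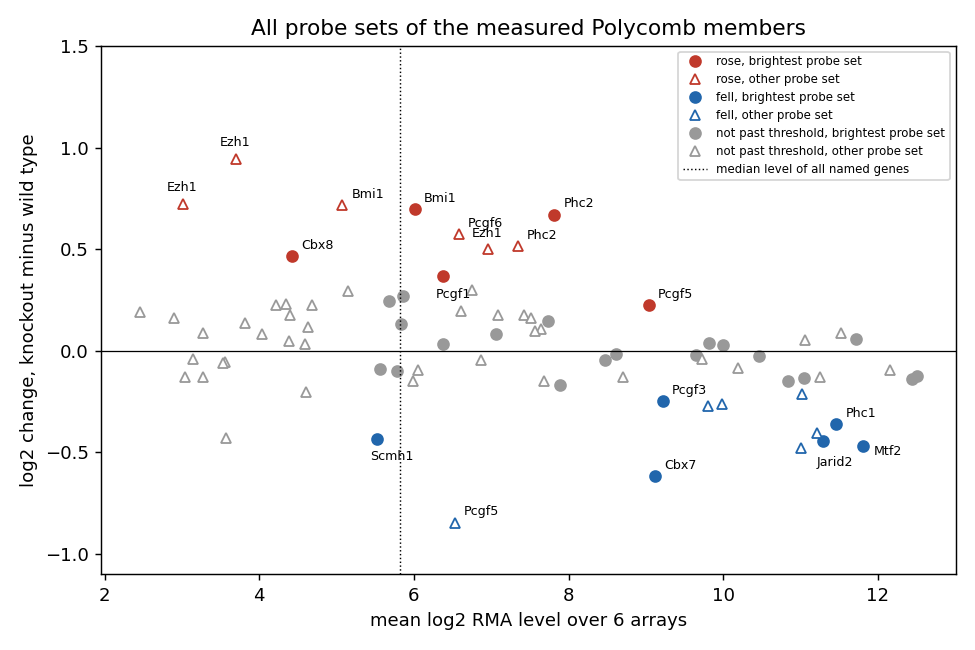
Log2 change in knockout minus wild type (y axis) against mean log2 level (x axis) for all 81 probe sets of the 31 members, with filled circles for the brightest probe set of a gene and open triangles for the rest. Colours mark calls adjusted over all 34945 named probe sets, where L3mbtl2 no longer passes. The probe sets of Mtf2 and Jarid2 that passed all lie below 0, those of Ezh1 above 0, and Pcgf5 has 1 on each side.

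Taking all 81 probe sets of the members, 50 were not the brightest of their gene. Of these 12 passed, 6 in each direction, and 24.7% of all named probe sets passed. Among the 18 that belong to a called member, 7 were called the same way, 1 the opposite way (Pcgf5) and 10 did not pass. Among the 32 of uncalled members 4 rose, 3 of Ezh1 and 1 of Pcgf6, and none fell.

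Other genes of the Polycomb system were read in lists of named partners, erasers and opponents. Of 25 measured partner subunits 5 rose and 7 fell, or 48.0%, beside 30.0% of all genes, with a median log2 change of -0.01. Of the 25, 21 lay above 5.83, the median of named genes. Without the dimmest 40% of genes, 34 of 64 genes of the pathway lists, Polycomb targets included, passed, beside 5879 of 10916 genes. Lcorl, whose locus encodes a PRC2 accessory protein, rose from 7.99 to 8.96, by 0.97, and Lcor, its relative, rose by 0.48. Sfmbt2, a Polycomb protein with MBT domains, rose by 0.92, and Fbrsl1, a relative of Auts2 in variant PRC1, fell from 7.67 to 6.76, by 0.92. Csnk2a2, a casein kinase 2 subunit, rose by 0.86 (limma, Benjamini-Hochberg adjusted p at most 0.000638 for Lcorl, Sfmbt2, Fbrsl1 and Csnk2a2). Csnk2a2 lies on chromosome 8, where 33.6% of genes rose, beside 12.5% of all genes. None of the 31 members lies on chromosome 8. Of the partners of Pcgf6, E2f6 fell by 0.21 and Max rose by 0.31. Mga read 0.21 higher without overlap of arrays and did not pass (adjusted p = 0.062, limma with Benjamini-Hochberg).

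Of 13 measured genes of the H2A deubiquitinases and their partners 3 rose and 4 fell (median 0.02). That is 53.8%, beside 30.0% of all genes, but 12 of the 13 lay above the median level of named genes. The largest differences were in partner genes, namely Kdm1b, a histone demethylase (log2 change -0.71), Asxl2 (-0.64), the sugar transferase Ogt (-0.56) and Mbd6 (0.51). Of the 4 deubiquitinases in the list, which take ubiquitin off H2A, Usp16 fell by 0.36 and Usp21 rose by 0.30. The other two, Bap1 and Mysm1, read 0.15 and -0.18 and did not pass. Of 16 measured genes of H3K27 demethylation and of the opposing trithorax complexes 3 fell and none rose (median -0.04). That is 18.8%, beside 30.0% of all genes called and 17.5% called lower. All 16 lay above the median level. The 3 that fell were Kmt2c (-0.72), Kmt2a (-0.25) and Ash2l (-0.22), a shared subunit of the H3 lysine 4 methyltransferases. The demethylases Kdm6a and Kdm6b read -0.06 and -0.14 and did not pass.

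Genes known as Polycomb targets in embryonic stem cells were mostly dim, and few passed. Of 40 measured targets 37 lay below 5.83, the median of named genes. Among all 40, 4 rose and 2 fell, or 15.0%, beside 30.0% of all genes, with a median log2 change of 0.01. Cdkn2a, which encodes Ink4a and Arf and is a textbook target of Bmi1, read 5.11, 5.09 and 5.30 across wild-type arrays against 6.96, 7.09 and 7.20 across knockout arrays. It thus rose in every knockout array, by 1.91 (SE 0.09; adjusted p = 5.90e-05, limma with Benjamini-Hochberg). Its neighbour Cdkn2b rose by 0.50.

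Gata2, a blood and neural transcription factor, read 5.96, 6.31 and 6.19 across wild-type arrays against 7.57, 7.33 and 7.18 across knockout arrays. That was a rise of 1.20 with no overlap. Irx3, a homeobox gene, rose by 0.45 from a mean of 3.93. The endoderm factors Gata6 and Sox17 fell by 1.33 and 0.78, and both also belong to the extraembryonic endoderm markers, of which 6 of 10 fell. Whether those cells bear on the target list was not tested. Irx3 lies on chromosome 8, like Csnk2a2.

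**Figure D4:**
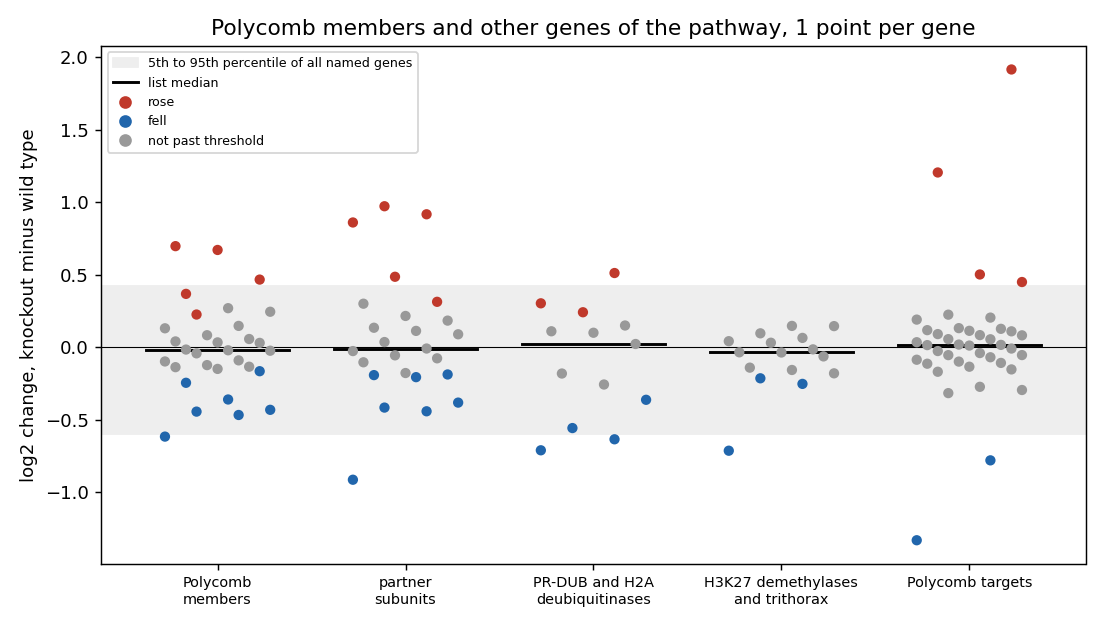
Log2 change in knockout minus wild type (y axis) for the Polycomb members and the other lists of the pathway (x axis), with 1 point per gene. Colours mark the call in limma, black bars the list medians, and the grey band runs from the 5th to the 95th percentile of all named genes, -0.60 to 0.42. All 5 medians lie within 0.04 of 0, and the highest point is Cdkn2a.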

How the data were processed

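The authors deposited log2 expression values per probe set. The submitters' processing notes name Partek 6.5 and RMA, a method that equalises array distributions, so a change of most genes in one direction would be removed. The log2 scale was taken from the range, 1.87 to 14.6. The RMA settings were not given in the sources used here. Of 45101 probe sets, 34945 had 1 symbol in GEO's platform annotation once Affymetrix control probe sets were left out, and 932 had several.

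The brightest probe set stood for each of 18193 genes. The genotype test was two-sided, from lmFit and eBayes of limma 3.58.1 (R 4.3.3) without covariates, taking Benjamini-Hochberg adjusted p under 0.05 across all genes, and no filter on dim genes. The 3 arrays per genotype limit precision. The procedure was tested on simulated data. Members, lists and the naming rule were chosen with earlier results of these data known. The rule named Sirt1, all members, Cdkn2a and, per pathway list, up to 4 genes past the threshold by size of change. The H2A deubiquitinases, E2f6, Max, Mga, Lcor, Cdkn2b, Irx3, Kdm6a and Kdm6b were chosen after their values were seen.

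Settings tried were repeated quantile normalisation, median centring, removal of the dimmest 40% of genes, averaged probe sets, an intensity trend with robust variance, a replicate block, each array left out, a threshold of 0.01 and, added after the data were seen, adjustment over probe sets. Arrays sharing a replicate number were not taken as pairs: their deviations had correlations of 0.0515, -0.0865 and 0.198 over genes, which are not independent replicates.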

Additional observations from a re-analysis of the deposited data

How the results depend on the processing

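Mtf2, Jarid2, Cbx7, Phc1 and Phc2 kept their direction and call under all 13 other settings at the 0.05 threshold. Across these the log2 change ran from -0.67 to -0.20 for Cbx7 and from 0.59 to 0.75 for Phc2. Phc1 has only 1 probe set, so averaging probe sets could not alter its log2 change. The other 7 called members lost the call or direction in at least 1 setting, and 8 uncalled members gained one. With probe sets averaged, Ezh1 read 0.54 and Pcgf5 -0.25, opposite in sign to their brightest probe sets. PRC2 had 5 called members without the dimmest 40% of genes and 5 with an intensity trend and robust variance, in place of 2. Over all genes these settings called 5879 of 10916 and 6449 of 18193, in place of 5462 of 18193. Variant PRC1 had 1 at an adjusted p under 0.01, and 1 to 3 when an array was left out, in place of 4. All members together gave 8 to 11 calls with an array left out, in place of 12. Over all genes the count fell as well, to between 4104 and 4753, in place of 5462. At an adjusted p under 0.01, 8 members and 3356 of all genes differed. The replicate block gave 4700 genes and 11 members, with L3mbtl2 lost. Bmi1, Cbx8 and Scmh1 lie near or below the median signal, where array background can shrink a fold. Whether it did so for these genes was not tested.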
